A study of Homo sapiens with 2 samples.

Results

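The microRNAs (miRNAs) miR-103 and miR-107 are near-identical mature miRNAs encoded in introns of the pantothenate kinase genes. Of 365 miRNA assays on the card, 2 carried the name miR-103 or miR-107 once the species prefix and the assay number were dropped (assay numbers 4373158 and 4373154). Both were measured by quantitative reverse-transcription PCR in 2 RNA samples of CL1-5, a highly invasive human lung adenocarcinoma line. The control RNA (vector cells) was from CL1-5 given empty pcDNA3.1, an expression plasmid. The other was from CL1-5 with overexpression of ANGPTL1, an angiopoietin-like factor that cells secrete (ANGPTL1 cells). By the labels' protocols both were stable lines selected with the antibiotic G418 for 4 weeks. Whether a line was a single clone or a mixed population is not given in the sources used here. The card held no assay for ANGPTL1 or for a pantothenate kinase messenger RNA. Each group was a single sample, so every difference compares these RNA samples and carries no error or p-value.

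Pantothenate kinases catalyse the first step of coenzyme A synthesis, and miR-103 and miR-107 are cut from transcripts of these genes. Because target choice rests mainly on the seed, a short stretch near the 5′ end of the mature miRNA, miR-103 and miR-107 are treated as having largely shared targets. The best described of these is DICER1, the enzyme that cuts miRNA precursors, whose repression by miR-103 and miR-107 has been linked to lower miR-200 and higher motility in breast cancer cells. Both miRNAs are also known for lowering insulin sensitivity through caveolin-1.

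The mature sequences are shown because the difference between the assays rests on a single base. Both are given 5′ to 3′ as listed by RefSeq (GRCh38.p14), with the seed (bases 2 to 8) in capitals.
miR-103: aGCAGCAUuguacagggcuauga
miR-107: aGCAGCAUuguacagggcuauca
They were identical at 22 of 23 positions. The only substitution, G22C (miR-103 first, counted from the 5′ end), lay outside the seed and next to the 3′ end, where the stem-loop primer of such assays anneals. How well each assay told these sequences apart is not given in the sources used here and was not tested.

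The hairpins that give rise to these mature forms are those of MIR103A1, MIR103A2 and MIR107. Both MIR103A1 and MIR103A2 yield the same miR-103, so the miR-103 assay cannot tell its genes apart. They are shown with the mature miRNA in capitals, to set the identical mature part against the parts that differ between genes.
MIR103A1: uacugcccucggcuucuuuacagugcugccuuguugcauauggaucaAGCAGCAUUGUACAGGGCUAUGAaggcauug
MIR103A2: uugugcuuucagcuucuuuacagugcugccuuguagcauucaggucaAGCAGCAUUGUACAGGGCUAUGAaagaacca
MIR107: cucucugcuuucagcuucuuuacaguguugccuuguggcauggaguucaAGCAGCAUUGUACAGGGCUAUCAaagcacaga
By the RefSeq annotation of GRCh38.p14, MIR103A1 lies on the minus strand at chr5:168560896-168560973, inside PANK3. MIR103A2 lies on the plus strand at chr20:3917494-3917571, inside PANK2. MIR107 lies on the minus strand at chr10:89592747-89592827, inside PANK1. Each hairpin had the same strand as its host gene. The edit distance, the number of single-base changes, insertions or deletions between whole hairpins, was 15 between MIR103A1 and MIR103A2, 17 between MIR103A1 and MIR107 and 12 between MIR103A2 and MIR107.

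In this assay, the threshold cycle (Ct) marks when the fluorescence of a well rises past a fixed level, and a later cycle means less template. An assay counted as detected below cycle 35, of 40 cycles run. RNU48, the small nucleolar RNA used as the endogenous control, stood at cycle 20.79 in vector cells and 21.21 in ANGPTL1 cells, 0.42 cycles later. In all, 157 miRNA assays were detected in vector cells, 158 in ANGPTL1 cells and 145 in both. Of marker miRNAs of other cell types that the card held under a name of their own, none was detected in both samples among 4 for blood, 3 for muscle, 1 for liver and 2 for neurons. These short lists do not hold every marker on the card. Beyond them miR-133b, a muscle miRNA, and both assays named miR-9, a neuronal miRNA, were detected in both samples. So were miR-486 and miR-155, miRNAs known from blood cells, at mean cycles of 30.75 and 29.76. For blood, miR-142-3p was detected only in vector cells, at cycle 34.51. Of 4 miRNAs of the miR-200 family, which mark epithelium, 1 was detected in both samples, and 2 stood at cycle 40 in both.

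miR-103 was the member with the stronger signal and stood almost level between the samples. It crossed threshold at cycle 25.55 in vector cells and 25.91 in ANGPTL1 cells, 0.36 cycles later, close to the delay of RNU48. Delta Ct, obtained by subtracting the RNU48 cycle of the same sample, was 4.76 in vector cells and 4.70 in ANGPTL1 cells. The log2 ratio (delta Ct of vector cells minus that of ANGPTL1 cells) was therefore 0.06, or 1.04-fold higher in ANGPTL1 cells. Its cycle ranked 24 of the 157 assays detected in vector cells and 28 of the 158 detected in ANGPTL1 cells, counted from the earliest.

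miR-107 gave a weak signal in both samples, and a weaker one in ANGPTL1 cells. It crossed threshold at cycle 31.24 in vector cells and 32.70 in ANGPTL1 cells, 1.46 cycles later. Delta Ct was 10.45 in vector cells and 11.49 in ANGPTL1 cells, a difference of 1.04. The log2 ratio was -1.04, or 2.06-fold lower in ANGPTL1 cells. By cycle it ranked 108 of 157 in vector cells and 121 of 158 in ANGPTL1 cells. In the authors' deposited table the fold changes are 1.04 for miR-103 and 0.486 for miR-107, the same ratios by construction.

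Over all 145 miRNAs detected in both samples, 4.83% (7) lay at least 2-fold lower with ANGPTL1 and 7.59% (11) at least 2-fold higher. miR-107 was 1 of the 7 and the nearest of them to the threshold. miR-139 lay just beyond it at a log2 ratio of -1.13, and miR-330 was the first on the other side of the threshold at -0.96. miR-103 held rank 81 of 145 from the lowest ratio, near the middle. Without a reference the balance turned, with 29 lower and 6 higher. The median log2 ratio of all 145 was -0.01 relative to RNU48 and -0.43 without a reference. DICER1 itself was not measured.

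The size of the miR-107 difference was set beside miRNAs of similar abundance. Within 1 cycle of the mean cycle of miR-107 (31.97) lay 22 other miRNAs detected in both samples. Their log2 ratios ran from -2.81 (miR-422b) to 3.04 (miR-127), with a median of 0.155. Of these, 18 lay within 2-fold, 3 were at least 2-fold higher and 1 at least 2-fold lower, and 4 lay at least as far from 0 as miR-107. Around miR-103, at a mean cycle of 25.73, 25 others ran from -0.87 (miR-565) to 1.12 (miR-30a-5p), with a median of 0.01. Of those, 23 lay within 2-fold.

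**Figure D1:**
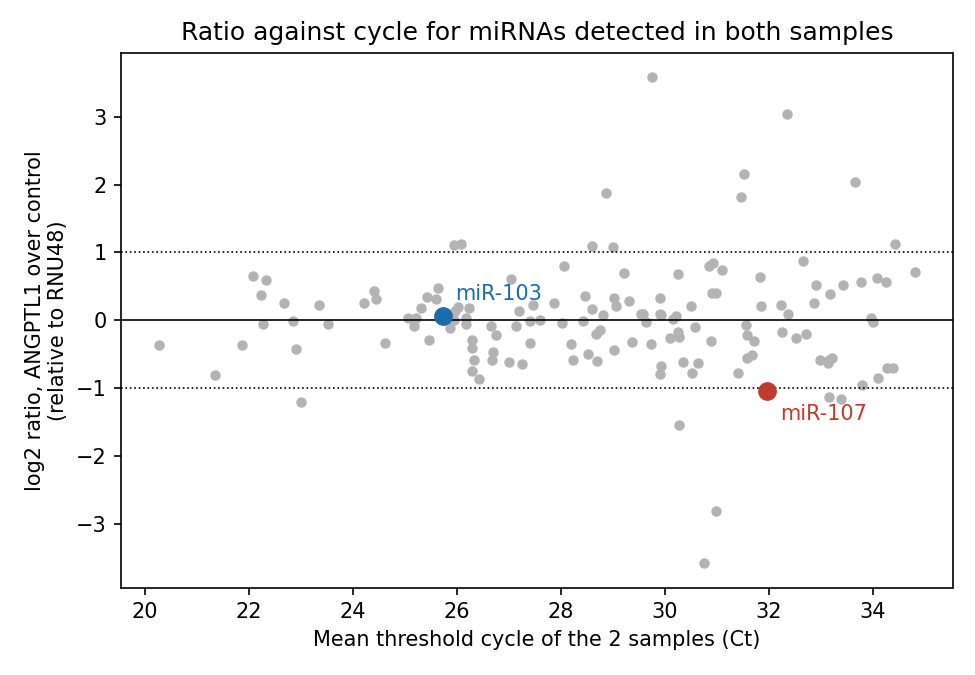
Each point is 1 of 145 miRNAs detected in both samples, with the mean threshold cycle of the samples on the x axis and the log2 ratio of ANGPTL1 over control cells, relative to RNU48, on the y axis; dotted lines mark 2-fold. miR-103 (blue) lies at 0.06 among early cycles, and miR-107 (red) at -1.04, just past the lower line, where points scatter from -2.81 to 3.04.

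The abundance gap between the members was wide in each sample and wider in ANGPTL1 cells. In the control, miR-107 crossed threshold 5.69 cycles after miR-103, which is 51.6-fold if each cycle doubles the template. In ANGPTL1 cells the gap was 6.79 cycles, or 110.7-fold. The signal of miR-107 thus stood at 1.94% of that of miR-103 in vector cells and at 0.904% in ANGPTL1 cells. The gap grew by 1.10 cycles, a factor of 2.14. This change needs no reference RNA, because both cycles come from the same sample. A constant offset in cycles between the assays cancels in the change. The gap within a sample does hold any such offset, so the 51.6-fold and 110.7-fold figures compare assay signals and not molecules. Any reading of miR-103 by the miR-107 assay, or an amplification per cycle that differs between the assays, would not cancel in the change. Neither was tested.

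Relative to RNU48, miR-103 stood at 3.69% of the RNU48 signal in vector cells and 3.85% in ANGPTL1 cells. miR-107 stood at 0.0715% and 0.0348%. Summed as if both assays read alike, they came to 0.0376 of RNU48 in vector cells and 0.0388 in ANGPTL1 cells, 1.03-fold higher. miR-107 made up 1.90% of that sum in vector cells and 0.896% in ANGPTL1 cells. The summed signal for the seed that both share was therefore that of miR-103 almost alone, and it was level between the samples while miR-107 was lower.

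The miR-15 and miR-107 group is a set of miRNAs that share the letters AGCAGC close to the 5′ end. The sequences are shown to set their seeds, in capitals, beside the seed of miR-103 and miR-107 (GCAGCAU).
miR-15a: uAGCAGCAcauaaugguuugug
miR-15b: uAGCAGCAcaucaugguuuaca
miR-16: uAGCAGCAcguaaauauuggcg
miR-195: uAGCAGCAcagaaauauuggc
miR-424: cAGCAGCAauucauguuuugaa
miR-497: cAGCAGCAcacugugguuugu
miR-503: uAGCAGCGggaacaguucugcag
miR-646: aAGCAGCUgccucugaggc
The letters AGCAGC stood at bases 1 to 6 in miR-103 and miR-107 and at bases 2 to 7 in the other 8, so the seeds are shifted by 1 base. miR-15a, miR-15b, miR-16, miR-195, miR-424 and miR-497 share the seed AGCAGCA, while miR-503 (AGCAGCG) and miR-646 (AGCAGCU) each have their own. Beyond the 5′ end the sequences part, with edit distances to miR-103 from 9 (miR-424) to 12 (miR-16, miR-195 and miR-646).

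Of these 8 relatives, 7 were detected in both samples and none was past 2-fold in either direction. Over all miRNAs 4.83% were lower and 7.59% higher, so a count of 0 among 7 does not set this group apart. The median log2 ratio of the 7 was 0.09, with 4 above 0 and 3 below. Without a reference the median was -0.33, and miR-15a alone, at -1.21, was past 2-fold. miR-16, a repressor of BCL2 and of cell cycle genes and the earliest of the group, stood at cycle 21.48 in vector cells and 22.26 with ANGPTL1, for a log2 ratio of -0.36. miR-15a, which shares a transcript with a copy of miR-16, stood at cycles 29.31 and 30.52, a log2 ratio of -0.79. miR-15b, from the other cluster with miR-16, stood at cycles 24.39 and 24.49, a log2 ratio of 0.32. These partners thus lay on both sides of 0, all within 2-fold. By a looser limit of 1.5-fold, miR-15a alone of the 7 was lower and miR-503 alone higher, where 19.3% of all 145 miRNAs were lower and 16.6% higher.

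miR-195 stood at cycles 29.41 and 29.74, with a log2 ratio of 0.09, and its cluster partner miR-497 at 33.48 and 33.38, with 0.52. miR-424 stood at cycles 31.21 and 32.15, with a log2 ratio of -0.51. Its cluster partner miR-503 stood at 34.95 and 34.66, just inside the detection limit, with 0.71. miR-646 was detected in neither sample, at cycle 35.74 in vector cells and 40 in ANGPTL1 cells. miR-107 had a lower ratio than each of the 7 detected relatives, and miR-103 lay between them. In the summed signal of the 9 detected miRNAs with AGCAGC, miR-16 took 83.1% in vector cells and 76.7% in ANGPTL1 cells, miR-103 4.95% and 6.11%, and miR-107 0.0958% and 0.0552%. That sum in ANGPTL1 cells was 0.844 times that in vector cells, again as if all assays read alike.

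**Figure D2:**
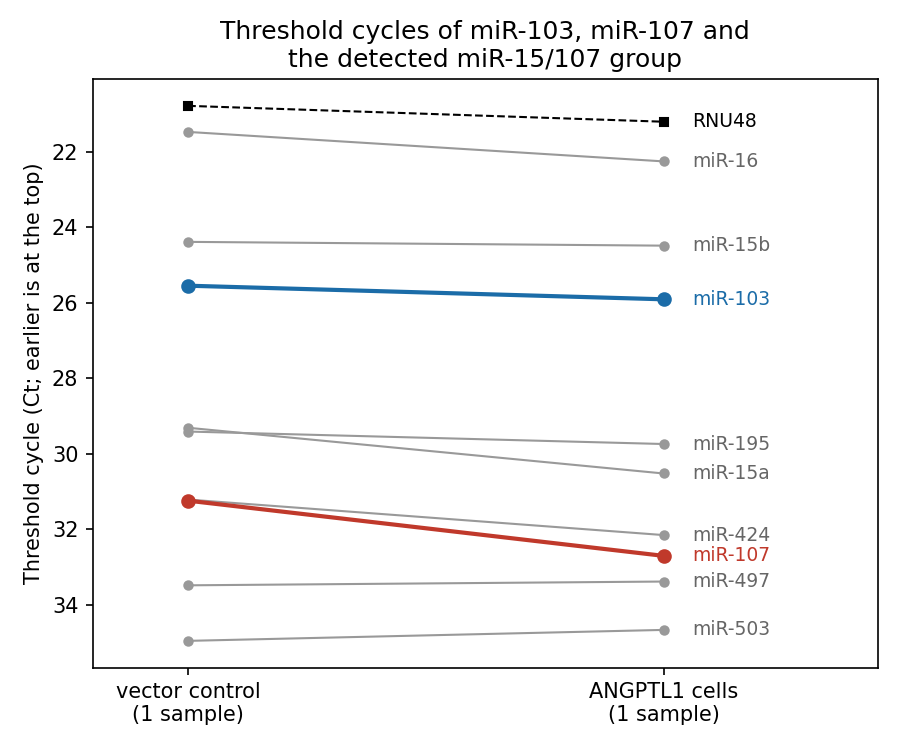
Threshold cycles (y axis, earlier cycles at the top) in the vector control and in ANGPTL1 cells (1 sample each) of miR-103 (blue), miR-107 (red), the 7 detected relatives (grey) and RNU48 (black, dashed). miR-107 has the steepest line, 1.46 cycles, beginning level with miR-424 in vector cells and ending below it; miR-103 runs nearly parallel to RNU48.

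The miRNAs with the most similar pair of delta Ct values were found by distance in the plane of the control and ANGPTL1 values, a measure over only 2 samples. Nearest to miR-103 were miR-132 (distance 0.24 cycles), miR-125a (0.25), miR-26b (0.31) and miR-17-5p (0.32). Nearest to miR-107 was its relative miR-424 (0.56), followed by miR-502 (0.63), miR-339 (0.66) and miR-34a (0.74). All 4 neighbours of miR-107 had negative log2 ratios, from -0.55 (miR-339) to -0.17 (miR-34a), and none was past 2-fold. The log2 ratio is the difference of the same delta Ct values, so the shared sign partly follows from how neighbours were chosen. The neighbours of miR-107 were farther from it than those of miR-103 from miR-103.

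How far near-identical miRNAs part between the samples was described over such pairs among the 88 assays that were given current RefSeq names. Of these assays 67 were detected in both samples, and 24 pairs of them had mature sequences with an edit distance of at most 2 and a length difference of at most 1. All 24 pairs shared their seed. The absolute difference between the log2 ratios was 1.10 for miR-103 and miR-107. Over the other 23 pairs it ran from 0.04 to 1.63, with a median of 0.34, and 1 pair exceeded 1.10. Pairs are not independent, since 13 of the 23 involve let-7 miRNAs or miR-98, many of them sharing an assay. No pair was formed with miR-130a, miR-30b, miR-30d, miR-34c, miR-422a or miR-422b, all detected in both samples. The pairs thus do not cover all near-identical miRNAs on the card, and no rank among them is read from this. By name, miR-130a (1.11) and miR-130b (0.04) differed by about as much as miR-103 and miR-107, and miR-30a-5p (1.12) and miR-30d (0.61) by less. Also by name, miR-422a (-1.16) and miR-422b (-2.81) differed by more than miR-103 and miR-107 and by more than any pair formed. So did miR-34a (-0.17) and miR-34c (2.04). Farther apart than miR-103 and miR-107 too were miR-146a (2.15) and miR-146b (0.84), which formed no pair either.

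Among the pairs formed, the one above it was let-7a and let-7b, at log2 ratios of 0.25 and 1.88. The other pair formed at 1 or more was let-7c and let-7e, at 1.13 and 0.10, with let-7c near the detection limit (cycle 34.79 in vector cells). In the 10 other pairs formed without a let-7 family member the difference ran from 0.05 to 0.40, with a median of 0.215. Not among them, and farther apart, were miR-130a with miR-130b, miR-30a-5p with miR-30d and miR-422a with miR-422b. The same held for miR-146a with miR-146b and miR-34a with miR-34c, and this list may not be complete. In the 9 other pairs formed that differ by a single edit, as miR-103 and miR-107 do, it had a median of 0.21 and reached 0.88, in let-7a and let-7c. The closest of all 24 pairs formed were let-7a and miR-98 (0.04), miR-20a and miR-20b (0.05) and miR-100 and miR-99a (0.06). A wide gap in cycles did not go with a wide difference in each case. miR-29a and miR-29c stood 6.47 cycles apart in vector cells and 6.68 in ANGPTL1 cells, with ratios that differed by 0.21. miR-20a and miR-20b stood 6 and 5.95 cycles apart. A control gap over 5 cycles occurred in 4 of the 23 other pairs, the widest being 7.01 cycles between let-7a and let-7c.

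**Figure D3:**
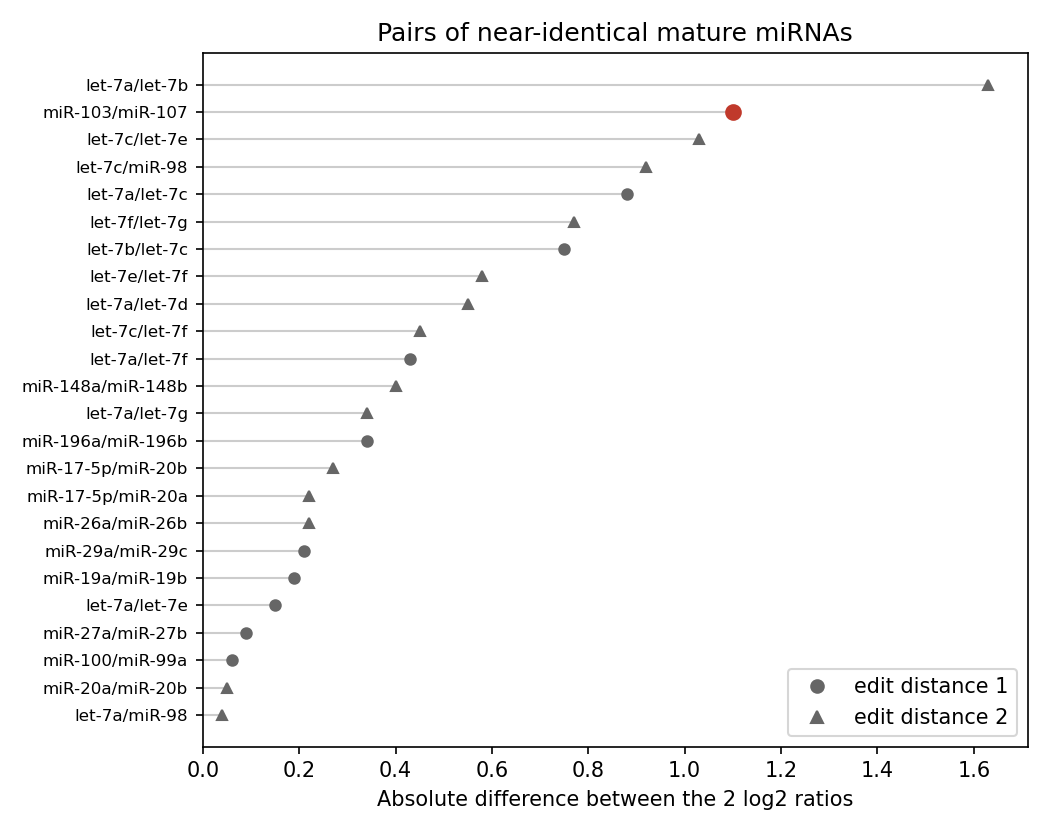
Absolute difference between the log2 ratios (x axis) of the 24 pairs of near-identical mature miRNAs that were formed from the assays with RefSeq sequences, detected in both samples; circles mark pairs at an edit distance of 1, triangles of 2. miR-103 and miR-107 (red) stand at 1.10 and let-7a and let-7b at 1.63. Pairs with miR-130a, miR-30d or miR-422a, among others, are not drawn.

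Further miRNAs tied to the described roles of miR-103 and miR-107 were read from lists. The let-7 family, which also represses DICER1, had 8 members with assays of their own, all detected in both samples. Of these, 2 were at least 2-fold higher and none lower, where 7.59% of all miRNAs were higher and 4.83% lower, and their median log2 ratio was 0.465. Without a reference the median was 0.045 and 1 member, let-7b, was past 2-fold. The members past 2-fold were let-7b at 1.88 and let-7c at 1.13, followed by let-7d at 0.80 and let-7f at 0.68. let-7c stood near the detection limit, at cycle 34.79 in vector cells and 34.08 in ANGPTL1 cells. Of the miR-200 family, which represses ZEB1 and ZEB2, only miR-200c was detected in both samples, at cycle 32.16 in vector cells and 30.77 with ANGPTL1, for a log2 ratio of 1.82 (1.39 without a reference). miR-141 of this family was detected in neither sample, at cycle 40 in vector cells and 35.4 in ANGPTL1 cells, there just outside the limit.

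Of 14 miRNAs known for roles in lipid or glucose metabolism with assays of their own, 9 were detected in both samples, none past 2-fold, with a median log2 ratio of -0.05. Over all miRNAs 4.83% were lower and 7.59% higher, so a count of 0 among 9 does not set this list apart. Without a reference the median was -0.47 and miR-335, at -1.03, was past 2-fold. The farthest from 0 were miR-335 (-0.61), miR-26b (0.47), miR-378 (-0.44) and miR-29c (-0.26). miR-33, from an intron of a sterol-regulatory gene, was detected only in vector cells, at cycle 33.79 against 40. The same held for miR-375, an islet miRNA, at 34.38 against 35.45.

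The 2-fold reading of miR-107 rests on the reference and on perfect doubling. With miR-16 as reference its log2 ratio was -0.68, or 1.60-fold lower, and with 1.8-fold amplification per cycle it was -0.88, or 1.84-fold lower. At a detection limit of cycle 32, miR-107 would not count as detected in ANGPTL1 cells. The sign of the miR-103 ratio depended on the reference, at -0.36 without one and 0.42 against miR-16.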

How the data were processed

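TaqMan Low Density Array cards (Human MicroRNA Panel v1.0) were run for 40 cycles from 500 ng of total RNA, per the labels' protocols. The authors deposited 3 tables: average threshold cycles for 366 assays, delta Ct against RNU48 (a log2 scale with the sign turned) and the fold ratio of ANGPTL1 over control cells, per the file headers. The software, the threshold and the number of averaged wells are not stated in those sources. A further 2 columns of linear levels were not used. Delta Ct recomputed from the cycle table was within 0.01 of the deposited value.

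Ratios, gaps, ranks and edit distances were computed with Python 3.11.15. Counts past 2-fold were checked on simulated ratios, and the edit distance on short made-up sequences. Gaps and ranks were not checked in this way. Detection meant a cycle below 35, and 2-fold was the size limit. Names standing on 2 assays (14 names) were left out of lists and pairs. Current names were assigned by hand to 88 assays and matched to RefSeq sequences (GRCh38.p14). Named were the members, the detected miR-15 and miR-107 group, up to 4 members of each other list, the 4 nearest miRNAs by delta Ct, pairs differing by at least 1 and the 3 closest pairs. miR-130a, miR-130b, miR-30a-5p, miR-30d, miR-422a, miR-146a, miR-146b and miR-34c were named after their values were seen. The same holds for miR-133b, miR-9, miR-486, miR-155, miR-141, miR-139, miR-330, the window extremes and miRNAs beyond this rule. The members and lists were chosen with earlier results of these data known. Alternatives varied the reference, the amplification, the detection limit, the fold limit and the edit distance.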

Additional observations from a re-analysis of the deposited data

How the results depend on the processing

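The growth of the gap between miR-103 and miR-107 was 1.10 cycles from the Ct table, the delta Ct table and the authors' deposited fold changes, which repeat the same cycles and so test little. With 1.8-fold amplification per cycle it was 0.93 log2 units, and the gaps were 4.83 in vector cells and 5.76 in ANGPTL1 cells. The log2 ratio of miR-107 was below 0 under each alternative: -1.46 without a reference, -1.51 with the median Ct of the detected miRNAs as reference, -0.68 with miR-16 and -0.88 with 1.8-fold amplification. Against the mean Ct it was -1.05, and against the median of the single differences -1.03, both added after the data were seen. The corresponding values of miR-103 were -0.36, -0.41, 0.42 and 0.05, with 0.05 and 0.07 for the added references. The median Ct was 29.25 in vector cells and 29.20 with ANGPTL1, unlike the median of single differences without a reference (-0.43), so references taken from the detected miRNAs disagree. The cause was not tested.

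Without a reference the median log2 ratio was -0.33 for the miR-15 and miR-107 group (1 lower), 0.045 for let-7 (1 higher), -0.47 for the metabolic miRNAs (1 lower), 1.39 for miR-200c and -0.43 for all detected miRNAs, with 6 higher and 29 lower of 145. Below cycle 32 the miR-15 and miR-107 median was -0.135, the metabolic one 0.02 and that of all miRNAs 0.01, with 1 let-7 miRNA higher and, over all, 6 higher and 2 lower; no miR-200 miRNA was left. Below cycle 38 the metabolic median was -0.11 and that of all miRNAs 0.015, with 23 higher and 11 lower. At 1.5-fold, 1 of the miR-15 and miR-107 group was higher and 1 lower, 4 let-7 miRNAs higher, 1 metabolic miRNA lower, and over all 24 higher (16.6%) and 28 lower (19.3%). The median difference within near-identical pairs was 0.37 over all 24, 0.275 at an edit distance of 1, 0.245 below cycle 32, where miR-103 and miR-107 drop out, 0.44 below cycle 38 and 0.34 without miR-103 and miR-107, the last added after the data were seen. No replicate could be left out, since each group has 1 sample. No paired analysis was possible because there was a single RNA sample for the vector and a single one for ANGPTL1.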
